A study of Mus musculus with 10 samples.

Results

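The genes described here encode the proteins of the cytosolic ribosome, the particle that translates messenger RNA. They were taken as the mouse protein-coding genes whose symbol is Rpl or Rps with a number and an optional ending, together with Rplp0, Rplp1, Rplp2 and Rpsa, without the Rps6k kinases and the copies whose symbol ends in ps and a number. Of 47311 genes in the tables, 85 carried such a symbol, and 82 were kept because their mean over the 10 libraries was 20 TPM or more. TPM is the level of a gene as a share of all transcripts, corrected for transcript length. The 82 genes comprise 49 of the large subunit and 33 of the small subunit. The 3 genes left out were far under the limit, at 0.733 TPM for Rpl39l, 0.0639 TPM for Rpl3l and 0.0018 TPM for Rpl10l, and the lowest gene kept was Rpl5 at 28.0 TPM.

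The libraries hold polyA RNA of mouse bone marrow cells without lineage markers and with Kit, a receptor of progenitors and mast cells. The groups over-expressed full-length ASXL2 (2 libraries), 1 of 3 mutant forms of ASXL2 called Mutant1, Mutant2 and Mutant3 (2 libraries each, 6 in all), or carried the empty vector (2 libraries). ASXL2 is a chromatin regulator. Cells of every group were sorted for GFP, the marker of the vector, and grown in IMDM with 15% serum and the cytokines IL3, IL6 and SCF. Each group has 1 library of batch 1 and 1 of batch 2 in the labels. The labels do not give the mutations, the promoter of the vector, the level of the proteins or whether a group's libraries came from separate cultures or animals, so each p-value reflects library-to-library spread, part or all of which may be technical.

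Each library held between 52422686 and 79320702 estimated counts, of which 99.3 to 99.6% were matched to genes. Asxl2 itself stood at 709.5 and 514 TPM with full-length ASXL2, at 374 to 1045 TPM in the mutants and at 30.1 and 28.7 TPM with the empty vector. The names of the deposited data give another mutant number than the label for 4 mutant libraries, and another batch for 2 of them (Mutant1 replicate 2 and Mutant3 replicate 1), so the 6 mutant libraries were pooled and the batch was read both ways. Of 13 mast cell and basophil markers, 11 had a mean of 10 TPM or more, and their summed level was 57800 to 70000 TPM with full-length ASXL2, 57700 to 64400 TPM in the mutants and 63800 to 65600 TPM with the empty vector. The 7 stem and progenitor markers summed to 271 to 316, 243 to 313 and 367 to 382 TPM in the same order of groups. Only 2 of these 7 had a mean of 10 TPM or more, and 2 had a mean under 1 TPM. All 6 lymphoid markers had a mean under 1 TPM.

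A ribosome is built from a small subunit, which reads the messenger RNA, and a large subunit, which joins amino acids, each made of ribosomal RNA and one copy of most of its proteins. Growing blood progenitors make these proteins in large amounts and in balance, and partial loss of single ribosomal protein genes causes Diamond-Blackfan anaemia in humans. Most vertebrate ribosomal protein messages start with a C followed by a run of pyrimidines, the terminal oligopyrimidine motif, through which the mTOR kinase and the RNA-binding protein Larp1 govern their translation.

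Of the 82 genes, 62 had an entry in the RefSeq table of promoters (GRCm38.p6). A C followed by at least 4 pyrimidines within 2 bases of the annotated start was present in 22 of them (35.5%), against 10.6% of all 27025 gene symbols in the table. The annotated start can lie some bases from the start used in these cells. A window without the motif says only that no such run begins within 2 bases of the annotated start. The windows below run from 15 bases before the annotated start to 15 bases from it, 5′ to 3′ on the gene's strand. They are shown as examples with the motif, beside Rpl22l1, which does not meet the rule. The Rpl22l1 window does hold a C with a pyrimidine run (ctcttccc), which begins just beyond the limit of 2 bases. Capitals mark the C and its pyrimidine run where they meet the rule.

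Rpl15 (chr14:18270972-18271001, minus strand): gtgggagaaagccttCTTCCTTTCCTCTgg
Rps10 (chr17:27635230-27635259, minus strand): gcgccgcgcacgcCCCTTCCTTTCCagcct
Rpl28 (chr7:4792950-4792979, plus strand): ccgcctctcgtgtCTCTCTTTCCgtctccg
Rps18 (chr17:33955651-33955680, minus strand): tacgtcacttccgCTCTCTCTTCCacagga
Rps6 (chr4:86857353-86857382, minus strand): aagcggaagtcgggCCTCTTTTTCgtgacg
Rps27 (chr3:90213634-90213663, minus strand): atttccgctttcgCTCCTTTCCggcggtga
Rps27rt (chr9:114982725-114982754, minus strand): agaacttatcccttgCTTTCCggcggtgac
Rpl22l1 (chr3:28805493-28805522, plus strand): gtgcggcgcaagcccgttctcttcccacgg

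Rps27rt, a retrotransposed copy of Rps27 that is annotated as protein-coding, shares the letters that follow the start of its parent and differs upstream of it. In the 300-base promoters, counted on either strand, GGGCGG was present in 39 of the 62 genes (62.9%) against 38.2% of all symbols, and CCGGAAGT in 12 (19.4%) against 4.3%. ATGGCGGC was present in 4 (6.5%) against 2.6%, and TATAAA in 7 (11.3%) against 15.7%. A match describes the sequence, not a bound factor.

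The ribosomal protein genes together held 10.2 and 10.95% of all TPM with full-length ASXL2, 9.68, 10.8 and 11.6% (lowest, median and highest) in the 6 mutants, and 13.1 and 12.4% with the empty vector. Both full-length libraries and every mutant library thus lay below both empty vector libraries. Among the mutants the libraries whose deposited name gives batch 2 had 10.2, 9.68 and 10.1%, against 11.4, 11.6 and 11.3% in those named batch 1. As shares of estimated counts the same libraries had 4.65, 4.54 and 4.43% against 4.46, 4.68 and 4.64%, which overlap. The mean share was 10.6 ± 0.544% with full-length ASXL2, 10.7 ± 0.802% in the mutants and 12.75 ± 0.499% with the empty vector (SD, n = 2, 6 and 2). TPM shares also move with other abundant entries. Mir6236, whose symbol is that of a microRNA gene, took 105546 and 48847 TPM with full-length ASXL2, 55573 to 109219 TPM in the mutants and 38966 and 58308 TPM with the empty vector. Which RNA the reads assigned to it came from was not tested. With Mir6236 left out of the total, the mean shares were 11.45, 11.6 and 13.4% in the same order of groups. The ratio of the large-subunit share to the small-subunit share stayed between 1.16 and 1.19 in all 10 libraries. In bulk samples such as these, fewer cells of one type and less RNA per cell cannot be told apart.

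**Figure D1:**
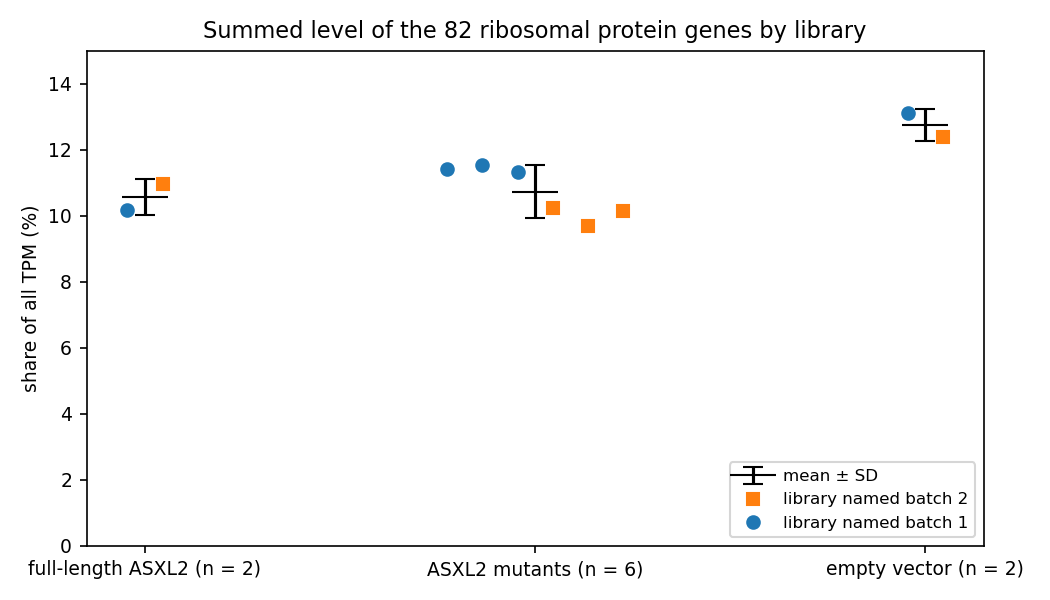
Share of all TPM held by the 82 ribosomal protein genes (vertical axis, percent) in each library of full-length ASXL2, the pooled ASXL2 mutants and the empty vector; squares and circles are libraries of batch 2 and batch 1 of the deposited names, and bars give the mean ± SD. The full-length libraries at 10.2 and 10.95% and the mutant libraries at 9.68 to 11.6% lie under the empty vector libraries at 13.1 and 12.4%.

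Within the family the levels ran from 28.0 to 4589 TPM with a median of 1391 TPM (means over the 10 libraries). Of the 82 genes, 54 stood at 1000 TPM or more, 23 between 100 and 1000 TPM and 5 under 100 TPM, and 68 of the 200 highest genes of the tables were ribosomal protein genes. The highest were Rplp1 (4589 TPM), a protein of the stalk that recruits elongation factors, Rpl41 (3224 TPM), the shortest ribosomal protein, Rps9 (2857 TPM) and Rps24 (2785 TPM) of the small subunit, and Rpl32 (2591 TPM) of the large subunit. The lowest were Rps27rt (65.4 TPM), Rpl27 (63.4 TPM), Rpl7l1 (61.2 TPM), Rpl12 (51.4 TPM) and Rpl5 (28.0 TPM). Rpl7l1, a relative of Rpl7, acts in ribosome assembly in human cells, whereas Rpl27, Rpl12 and Rpl5 are core proteins of the large subunit. The transcripts were short, with a median length of 687 bases against 2152 bases for all genes tested.

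The low levels of Rpl27, Rpl12 and Rpl5 stand beside near-identical genes elsewhere in the genome. Counting words of 31 bases, 97 other genes shared at least 80% of their words with a ribosomal protein gene, 53 of the 82 genes had at least 1 such copy, and 25 copies had a mean of 20 TPM or more. Rpl5 held 1.79% of the TPM of itself and its copy Gm15500 (chromosome 7), which had 1536 TPM. Rpl12 held 3.33% beside Gm10275 (chromosome 10, 1489 TPM), and Rpl27 held 3.83% beside Rpl27-ps3 (chromosome 18, 1591 TPM). In all, 12 genes held less than 50% of the summed TPM: these 3, Rpl10 and Rpl27a (both 11.9%), Rps23 (28.0%), Rpl28 (34.1%), Rpl15 (35.3%), Rpl37 (37.2%), Rpl31 (41.6%), Rps20 (42.4%) and Rps16 (43.6%). With copies added, the median of the family was 1528 TPM, 69 genes stood at 1000 TPM or more and 2 (Rps27rt and Rpl7l1) under 100 TPM. Members were not counted as copies of each other.

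The coding sequences show how little there is to tell such genes apart. The stretches below, from GENCODE M21 transcripts, are coding bases 1 to 60 of Rpl5 and Rpl10, and coding bases 232 to 291 of Rpl37, with the aligned bases of the copy. Capitals mark the bases that differ.

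Rpl5 (chromosome 5): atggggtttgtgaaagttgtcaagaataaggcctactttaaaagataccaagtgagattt
Gm15500 (chromosome 7): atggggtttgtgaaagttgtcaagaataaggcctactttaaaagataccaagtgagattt
Rpl10 (chromosome X): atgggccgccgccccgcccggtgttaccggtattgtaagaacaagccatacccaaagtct
Rpl10-ps3 (chromosome 9): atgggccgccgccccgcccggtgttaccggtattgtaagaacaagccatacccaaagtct
Rpl37 (chromosome 15): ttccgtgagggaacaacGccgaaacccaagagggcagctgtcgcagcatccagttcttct
Rpl37rt (chromosome 5): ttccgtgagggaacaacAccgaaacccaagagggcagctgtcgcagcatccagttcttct

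Over the whole coding sequence, Rpl5 and Gm15500 differed at 0 of 891 bases, Rpl10 and Rpl10-ps3 at 0 of 642 bases and Rpl37 and Rpl37rt at 1 of 291 bases. The level of each of these genes alone is therefore uncertain. Among the members, 91.6% of the words of Rps27rt were also in Rps27, so the level of Rps27rt alone is uncertain too. Rps27l, Rpl22l1, Rpl36al and Rpl7l1 shared 0 words with Rps27, Rpl22, Rpl36a and Rpl7.

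**Figure D2:**
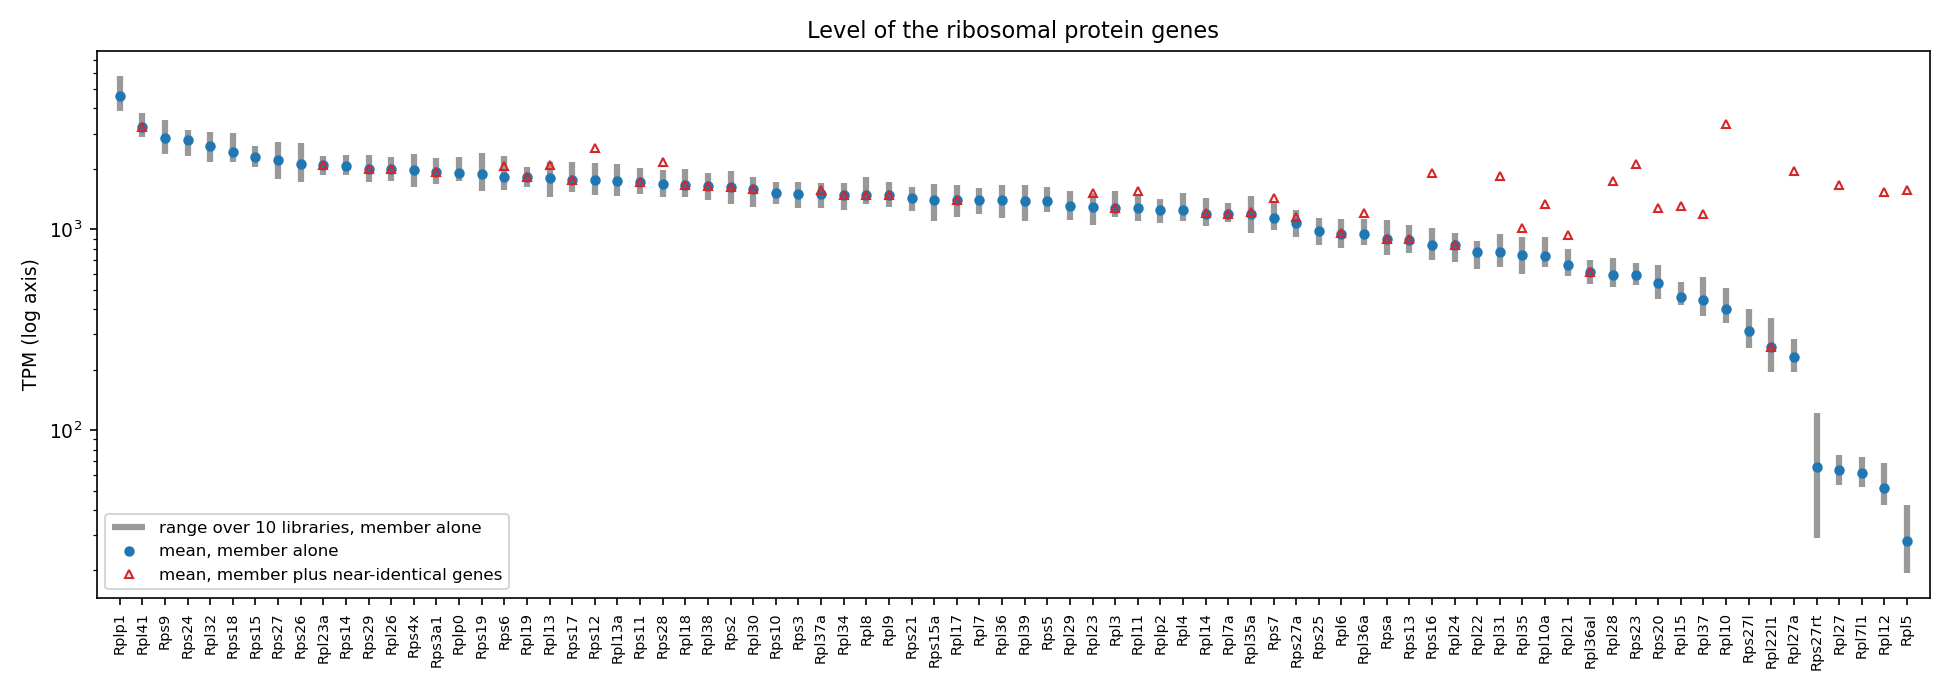
Mean TPM over the 10 libraries (log axis) of the ribosomal protein genes (2 of the 82 are not drawn), from Rplp1 at 4589 TPM to Rpl5 at 28.0 TPM; grey bars give the range over libraries and open triangles the mean with near-identical genes added. Rpl5, Rpl12 and Rpl27 rise to over 1000 TPM when their copies are added. Rpl7l1 and Rps27rt have none to add outside the family, and Rps27rt shares 91.6% of its words with the member Rps27.

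Differences between libraries were tested on counts, given here as CPM (the count scaled to library size, with TMM factors), with edgeR's quasi-likelihood test over all 17810 genes that passed the filter on low counts; all 82 members passed it. A gene is called where the p-value adjusted by Benjamini-Hochberg is under 0.05. CPM values are compared between libraries and not between genes.

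With full-length ASXL2 all 82 ribosomal protein genes had a log2 fold change below 0 against the empty vector, beside 52.7% of all genes tested. The median was -0.23 and the range -0.43 to -0.08, against a median of -0.01 for all genes. The large-subunit genes had a median of -0.23 and the small-subunit genes one of -0.23. In 77 of the 82 genes both full-length libraries lay below both empty vector libraries in CPM, which holds for 13.7% of all genes tested. The exceptions were Rps2, Rpl36al, Rps27l, Rps27rt and Rpl7l1.

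No single ribosomal protein gene passed edgeR's test between full-length ASXL2 and the empty vector, where 0.685% of all genes were called higher and 0.0674% lower. At an unadjusted p under 0.05, 50 of the 82 were lower and 0 higher, beside 2.29% of all genes lower and 6.01% higher. DESeq2 called 21 lower and 0 higher (0.573% of all genes lower, 2.64% higher), and edgeR with the batch of the labels as a replicate block called 0 (0.0786% lower, 0.646% higher). With the batch taken from the deposited names (below, the named batch) as the block, 35 fell and 0 rose (1.22% of all genes fell, 3.85% rose), 17 of the large and 18 of the small subunit. That count rests on few libraries and fell when any full-length or empty vector library was left out. It also fell without Mutant1 replicate 1, Mutant1 replicate 2 or Mutant2 replicate 1, which only inform the spread and the batch term. The shares of all genes called in those fits are not given here, so a loss of calls among all genes cannot be told apart. The median of the family in the fits with this block ran from -0.252 without full-length replicate 1 to -0.187 without empty vector replicate 2.

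In the pooled mutants all 82 genes again had a log2 fold change below 0 against the same 2 empty vector libraries, beside 50.4% of all genes tested. The median was -0.19 and the range -0.46 to -0.00, against a median of -0.00 for all genes. Without empty vector replicate 2 the median was -0.11, and without empty vector replicate 1 it was -0.24. All 6 mutant libraries lay below both empty vector libraries in 54 genes (5.39% of all genes), and all 8 ASXL2 libraries did so in 54 (4.05% of all genes).

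No gene of the family passed edgeR's test between the mutants and the empty vector (1.47% of all genes were called higher and 0.275% lower). At an unadjusted p under 0.05, 46 were lower and 0 higher, beside 3.48% of all genes lower and 7.87% higher. DESeq2 called 23 lower and 0 higher (1.12% of all genes lower, 4.08% higher), and the block by the batch of the labels called 0 (0.264% lower, 1.62% higher). A stricter filter on low counts gave 6 lower (0.455% of all genes) and protein-coding transcripts alone gave 6 lower (0.449%). With the named batch as the block, 46 fell and 0 rose (3.99% of all genes fell, 6.82% rose), 26 of the large and 20 of the small subunit. This count fell without either empty vector library and without Mutant1 replicate 1, and the shares of all genes in those fits are not given here. The median of the family with this block was -0.211 without empty vector replicate 1 and -0.141 without empty vector replicate 2. The 2 comparisons share the empty vector libraries, so their directions are not independent of each other.

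**Figure D3:**
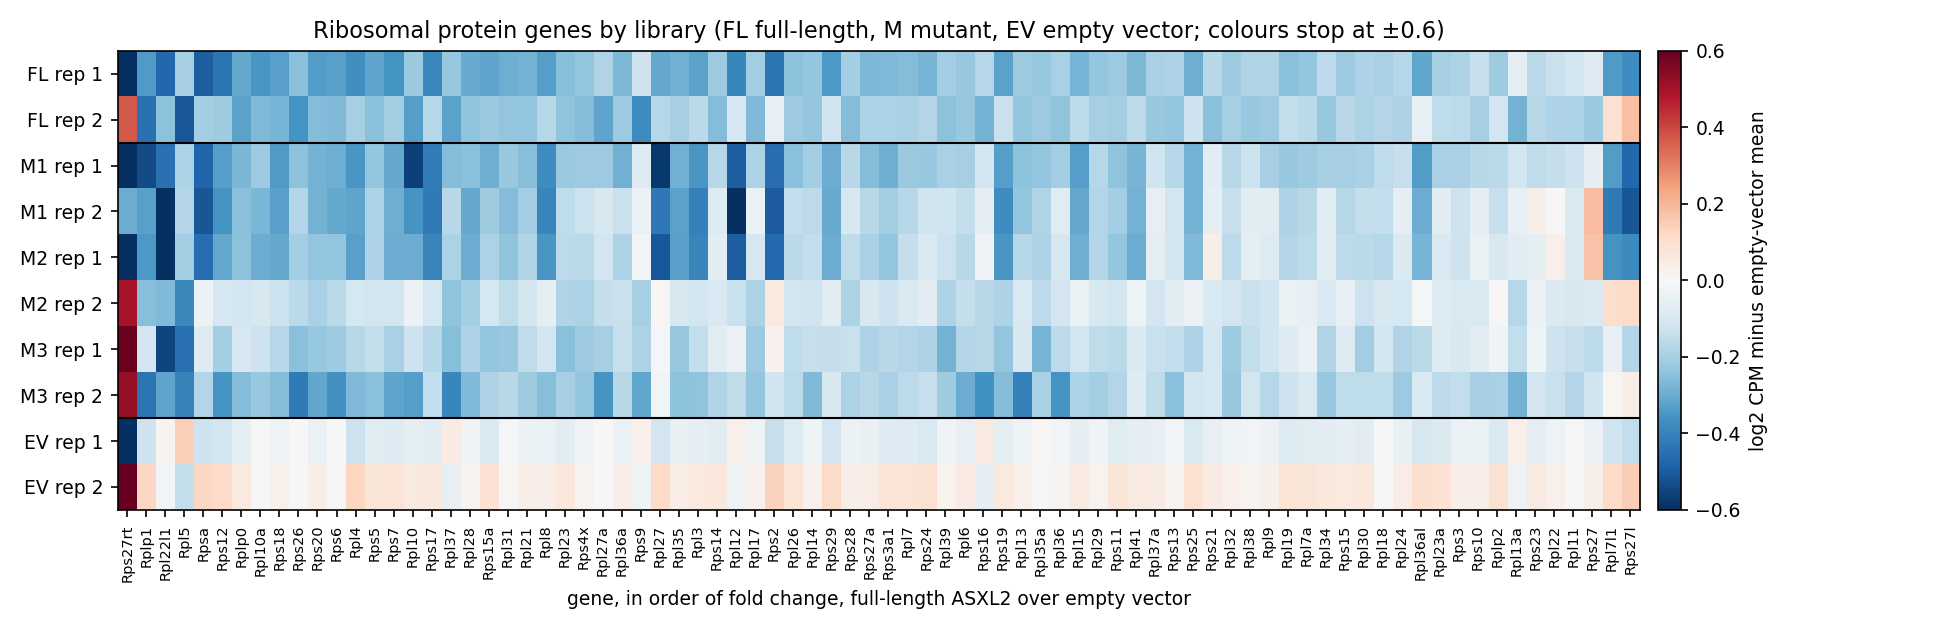
Level of the ribosomal protein genes (columns, 2 of the 82 not drawn, ordered by the fold change of full-length ASXL2 over the empty vector) in each library (rows, labelled FL for full-length, M for mutant and EV for empty vector), as log2 CPM minus the mean of the empty vector libraries, with colours that stop at ±0.6. Rows of the ASXL2 libraries are blue for most genes, with medians of -0.23 for full-length and -0.19 for the mutants, and Rps27rt on the far left differs between batches.

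The differences were also taken within batches. In batch 1, full-length ASXL2 minus the empty vector gave a median of -0.20 over the family with 81 of 82 genes below 0, and in batch 2 a median of -0.26 with 81 of 82 below 0 (1 library against 1 in each, no test). For the mutants minus the empty vector, read by the deposited names, the medians were -0.16 with 79 genes below 0 in batch 1 and -0.21 with 82 in batch 2 (3 libraries against 1 in each, no test). Read by the labels they were -0.15 and -0.21.

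Rps20, a protein of the small subunit, had the smallest p-value of the family with full-length ASXL2. It had 382 and 403 CPM with full-length ASXL2, 389, 403 and 421 CPM (lowest, median and highest) in the mutants, and 469 and 496 CPM with the empty vector. None of the 8 ASXL2 libraries reached either empty vector library. The log2 fold change was -0.30 (SE 0.0775, adjusted p = 0.155 by edgeR) with full-length ASXL2 and -0.26 (SE 0.0623, adjusted p = 0.0818 by edgeR) for the mutants. By edgeR with the named batch as a block, the adjusted p was 0.0114 and 0.00525. With its copy added the log2 fold changes were -0.288 and -0.265.

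Rpl28 and Rpl31, proteins of the large subunit, came next. Rpl28 had 272 and 284 CPM with full-length ASXL2, 271, 280.4 and 295 CPM in the mutants, and 331 and 340.2 CPM with the empty vector. Rpl31 had 250.4 and 260.4 CPM with full-length ASXL2, 256, 262 and 276 CPM in the mutants, and 305 and 308.5 CPM with the empty vector. Both were lower in all 8 ASXL2 libraries than in either empty vector library. For Rpl28 the log2 fold change was -0.27 (SE 0.0758, adjusted p = 0.200 by edgeR) with full-length ASXL2 and -0.25 (SE 0.0610, adjusted p = 0.0805 by edgeR) for the mutants. For Rpl31 it was -0.27 (SE 0.0733, adjusted p = 0.197 by edgeR) and -0.21 (SE 0.0591, adjusted p = 0.132 by edgeR). Rpl28 holds 34.1% and Rpl31 41.6% of the TPM summed with their copies. With copies added the log2 fold changes were -0.285 and -0.271 for Rpl28, and -0.255 and -0.211 for Rpl31.

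Rpl22l1, a relative of Rpl22 that can take its place in the large subunit, had the largest difference in the mutants. It had 68.4 and 80.1 CPM with full-length ASXL2, 62.4, 67.2 and 78.9 CPM in the mutants, and 96.1 and 93.8 CPM with the empty vector. The log2 fold change was -0.46 (SE 0.106, adjusted p = 0.0684 by edgeR) in the mutants and -0.35 (SE 0.133, adjusted p = 0.439 by edgeR) with full-length ASXL2. In the mutants the adjusted p was 0.00483 by edgeR with the named batch and 0.00725 by DESeq2, and without Mutant2 replicate 2 the gene was the one member called by edgeR (adjusted p = 0.0473). Rpl22 itself had 215 and 208 CPM with full-length ASXL2, 214, 219 and 242 CPM in the mutants, and 231 and 241 CPM with the empty vector. Its log2 fold changes were -0.16 (SE 0.0857, adjusted p = 0.773 by edgeR) and -0.08 (SE 0.0697, adjusted p = 0.842 by edgeR), and mutant and empty vector libraries overlapped.

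Rpl36a and Rpl36al encode near-identical proteins of the large subunit. Rpl36a had 216.0 and 223.8 CPM with full-length ASXL2, 213.5, 234.2 and 237.4 CPM in the mutants, and 253.8 and 267.4 CPM with the empty vector. Rpl36al had 155.5 and 186.8 CPM with full-length ASXL2, 153.0, 165.9 and 191.8 CPM in the mutants, and 180.0 and 207.1 CPM with the empty vector. All 8 ASXL2 libraries of Rpl36a lay below both empty vector libraries, and those of Rpl36al overlapped them. By edgeR with the named batch, Rpl36a fell in both comparisons (log2 fold changes -0.245 and -0.174 without the block, adjusted p = 0.0309 and 0.0335 with it), and Rpl36al fell in the mutants (adjusted p = 0.0226). With its copy added, Rpl36a had log2 fold changes of -0.262 and -0.196.

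Rpl7 had 868.0 and 908.4 CPM with full-length ASXL2, 890.6, 927.5 and 976.4 CPM in the mutants, and 985.7 and 1096 CPM with the empty vector. Every ASXL2 library was under both empty vector libraries, and the adjusted p by edgeR with the named batch was 0.0535 with full-length ASXL2 and 0.0575 for the mutants. Rpl7l1 had 101.8 and 137.3 CPM with full-length ASXL2, 96.2, 113.5 and 138.6 CPM in the mutants, and 118.6 and 140.3 CPM with the empty vector, and its groups overlapped.

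The stalk of the large subunit is made of Rplp0, which anchors it, and Rplp1 and Rplp2, which reach out to the elongation factors. Rplp0 had 1589 and 1572 CPM with full-length ASXL2, 1626, 1656 and 1833 CPM in the mutants, and 1886 and 2049 CPM with the empty vector. Rplp1 had 1118 and 1039 CPM with full-length ASXL2, 976, 1122 and 1307 CPM in the mutants, and 1299 and 1543 CPM with the empty vector. One mutant library of Rplp1 lay between the empty vector libraries, and all other ASXL2 libraries of both genes lay below them. Rplp2 had 387 and 414 CPM with full-length ASXL2, 392, 414.5 and 452 CPM in the mutants, and 422 and 478 CPM with the empty vector, and mutant and empty vector libraries overlapped. The log2 fold changes with full-length ASXL2 were -0.32 for Rplp0, -0.40 for Rplp1 and -0.17 for Rplp2, and in the mutants they were -0.21, -0.34 and -0.10. By edgeR with the named batch as a block, Rplp0 fell with full-length ASXL2 (adjusted p = 0.0229) and in the mutants (adjusted p = 0.0342), Rplp1 fell in the mutants (adjusted p = 0.0427) and Rplp2 passed in neither.

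Rpl5 and Rpl11 join the large subunit together with its small ribosomal RNA, and when unassembled they bind Mdm2, the inhibitor of p53. Rpl11 had 530.0 and 502.5 CPM with full-length ASXL2, 507, 532 and 539.7 CPM in the mutants, and 573 and 574.5 CPM with the empty vector. The ASXL2 libraries lay below both empty vector libraries, with log2 fold changes of -0.15 (SE 0.0736, adjusted p = 0.667 by edgeR) and -0.12 (SE 0.0597, adjusted p = 0.532 by edgeR). With its copy added they were -0.167 and -0.128. Rpl5 alone had log2 fold changes of -0.35 with full-length ASXL2 and -0.30 for the mutants, and with Gm15500 added -0.25 and -0.17.

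Rps19 and Rps14 are small-subunit genes known from human anaemias, Rps19 as the gene most often mutated in Diamond-Blackfan anaemia and Rps14 as a gene lost in the syndrome of the deleted long arm of chromosome 5. Rps19 had 566 and 645 CPM with full-length ASXL2, 546, 577 and 622 CPM in the mutants, and 679 and 736 CPM with the empty vector. Rps14 had 646 and 627 CPM with full-length ASXL2, 663, 708 and 717 CPM in the mutants, and 720.0 and 784.5 CPM with the empty vector. All 8 ASXL2 libraries of both genes lay below both empty vector libraries. Rps19 had log2 fold changes of -0.22 and -0.29, and by edgeR with the named batch it fell in both (adjusted p = 0.0324 and 0.00198). Rps14 had log2 fold changes of -0.24 and -0.11, and it passed that test in neither (adjusted p = 0.0614 and 0.223).

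Of the 22 Diamond-Blackfan genes listed, 20 of which are ribosomal protein genes, 22 lay below 0 with full-length ASXL2 and 21 for the mutants, with medians of -0.23 and -0.21. None passed edgeR's test in either comparison, where 12 and 13 had an unadjusted p under 0.05, and DESeq2 called 4 and 7 lower. With the named batch 13 fell in each. Of all genes, 2.29 and 3.48% were lower at an unadjusted p under 0.05, 0.573 and 1.12% by DESeq2, and 1.22 and 3.99% with the named batch.

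Rps27 in the mutants and Rps27l with full-length ASXL2 had the fold changes nearest to 0. Rps27, which binds zinc in the small subunit, had 298 and 269 CPM with full-length ASXL2, 282, 299 and 357.5 CPM in the mutants, and 306 and 322 CPM with the empty vector. The mutant libraries lay on both sides of the empty vector libraries, at a log2 change of -0.00 (SE 0.108, adjusted p = 0.997 by edgeR). Rps27l, its relative, had 69.1 and 101.5 CPM with full-length ASXL2, 62.7, 74.0 and 97.0 CPM in the mutants, and 80.7 and 99.3 CPM with the empty vector. Its full-length libraries enclosed those of the empty vector, at a log2 change of -0.08 (SE 0.247, adjusted p = 1.0 by edgeR).

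Set against full-length ASXL2 rather than the empty vector, no ribosomal protein gene was called in the mutants. The log2 fold change was above 0 in 73 of the 82 genes, beside 53.1% of all genes, with a median of 0.05 against 0.01 for all genes and a range of -0.14 to 0.15. The median was 0.021 without full-length replicate 1 and 0.082 without full-length replicate 2. The count of 0 was the same by edgeR (0.0% of all genes called higher and 0.0% lower), by DESeq2 (0.253 and 0.202%) and by edgeR with the named batch as a block (0.185 and 0.213%). At an unadjusted p under 0.05 these gave 0, 1 and 5 of the 82 genes, beside 1.92% of all genes higher and 2.12% lower by edgeR. The shares of all genes for the counts of 1 and 5 are not given here. Rps21 and Rps14 were among the genes with the smallest p-values. Rps21, a small-subunit protein, had 247, 252 and 273 CPM in the mutants and 237 and 223.5 CPM with full-length ASXL2. All 6 mutant libraries were above both full-length libraries, at a log2 change of 0.14 (SE 0.0664, adjusted p = 1.0 by edgeR). Rps14 had a log2 fold change of 0.13 (adjusted p = 1.0 by edgeR). The median was 0.00 in the libraries whose deposited name carries the mutant number of their label.

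Genes that work with the ribosomal proteins were read from lists. Of 24 translation factors and other genes with a terminal oligopyrimidine motif, 24 lay below 0 with full-length ASXL2 (median log2 fold change -0.21) and 23 in the mutants (median -0.18). Of 52 ribosome assembly genes, 48 lay below 0 with full-length ASXL2 (median -0.23) and 50 in the mutants (median -0.21). No gene of either list passed edgeR's test; at an unadjusted p under 0.05 there were 7 and 11 translation genes and 5 and 5 assembly genes, and DESeq2 called 1 and 1 translation genes and 0 and 0 assembly genes. With the named batch as the block, 7 and 9 translation genes and 14 and 29 assembly genes fell. Of all genes, 1.22 and 3.99% fell in the same fits, and 2.29 and 3.48% were lower at an unadjusted p under 0.05. By DESeq2 0.573 and 1.12% of all genes were lower. Npm1 is in both lists and is counted in each.

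Among those genes, Snhg1, a host of small nucleolar RNAs with such a motif, had 29.3 and 29.0 CPM with full-length ASXL2, 28.7 to 34.6 CPM in the mutants, and 40.4 and 38.3 CPM with the empty vector. All ASXL2 libraries were lower, with log2 fold changes of -0.43 (SE 0.102, adjusted p = 0.108 by edgeR) and -0.37 (SE 0.0815, adjusted p = 0.0544 by edgeR). With the named batch its adjusted p by edgeR was 0.0164 and 0.00734. Npm1, the nucleolar chaperone of ribosome assembly, had log2 fold changes of -0.32 and -0.26. By edgeR with the named batch its adjusted p was 0.0144 and 0.00836. Fbl, which methylates ribosomal RNA, and Polr1e, a subunit of RNA polymerase I, had log2 fold changes of -0.34 and -0.49 in the mutants (adjusted p = 0.316 and 0.225 by edgeR), and with the named batch both fell (adjusted p = 0.00557 each).

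The mitochondrial ribosome is built from another set of proteins. Its 78 genes had medians of -0.10 with full-length ASXL2 and -0.09 for the mutants, 73 and 72 of them below 0, and none passed edgeR's test, had an unadjusted p under 0.05 or was called by DESeq2 in either. With the named batch as the block 5 of them fell in the mutants and 0 with full-length ASXL2, beside 3.99 and 1.22% of all genes. Mrps2 (adjusted p = 0.0124 by edgeR) was among the 5. The 37 regulators of ribosomal protein synthesis had medians of -0.04 and -0.07. They ran from -0.41 and -0.47 for Myc to 0.48 and 0.71 for Mxi1. None of them passed edgeR's test. At an unadjusted p under 0.05 there were 2 and 7, beside 2.29 and 3.48% of all genes lower and 6.01 and 7.87% higher. DESeq2 called 1 and 3 lower, beside 0.573 and 1.12% of all genes. With the named batch as the block, 1 fell with full-length ASXL2, and 6 fell and 1 rose in the mutants. The 1 that rose was Mxd1 (log2 fold change 0.203, adjusted p = 0.0404 by edgeR with the named batch). In the same comparisons 1.22% of all genes fell and 3.85% rose with full-length ASXL2, and 3.99% fell and 6.82% rose in the mutants. The regulator with the smallest p-value was Trp53, which encodes p53, with log2 fold changes of -0.31 (SE 0.0729, adjusted p = 0.108 by edgeR) and -0.27 (SE 0.0586, adjusted p = 0.0570 by edgeR). Its adjusted p with the named batch was 0.00691 and 0.00321 by edgeR. Outside the family, 2967 genes with transcripts under 1000 bases had medians of -0.05 and -0.02, and 500 genes at 200 TPM or more had medians of -0.045 and -0.029.

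**Figure D4:**
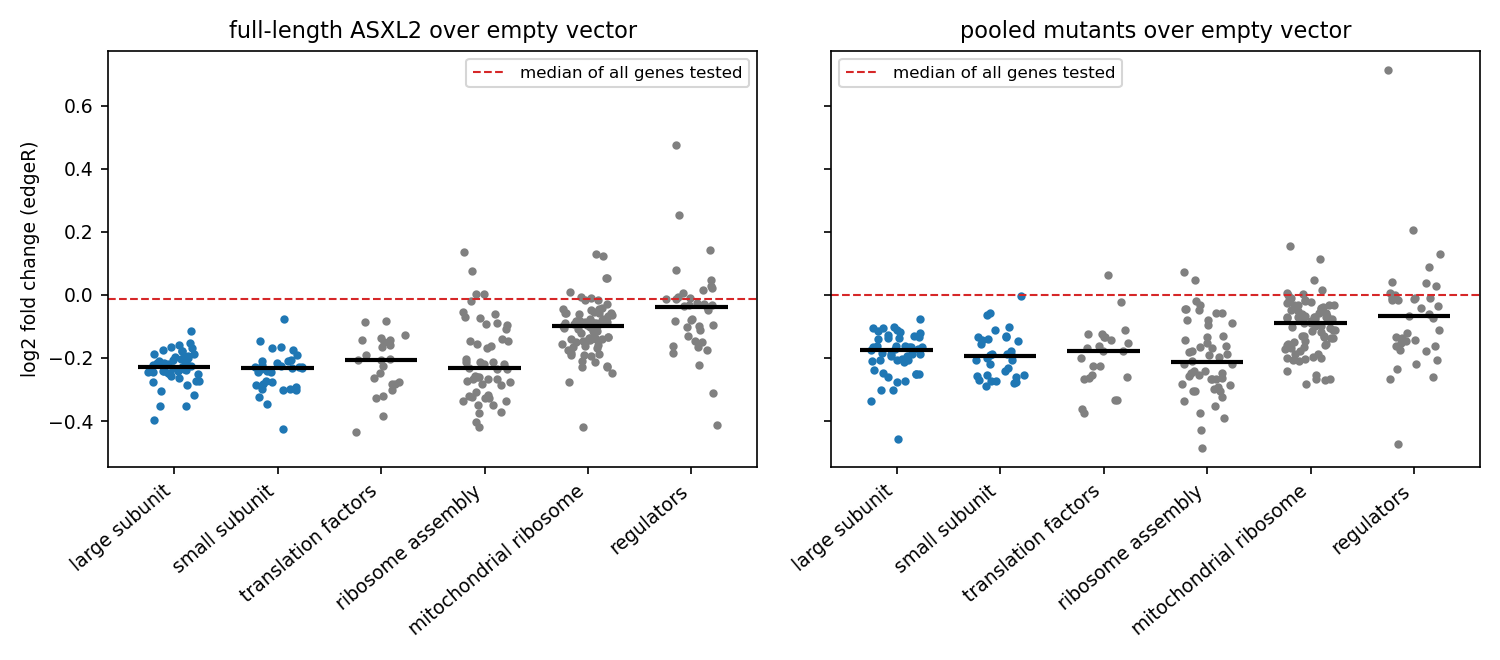
Log2 fold change by edgeR (vertical axis) of each gene of 6 lists with full-length ASXL2 (left) and in the pooled mutants (right), both over the same 2 empty vector libraries; black bars give list medians and the dashed line the median of all genes tested. Large- and small-subunit genes, translation and assembly genes have medians between -0.17 and -0.23, and the mitochondrial ribosome lies at -0.10 and -0.09.

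Where the ASXL2 libraries differed from the empty vector, the summed level of the stem and progenitor markers was also lower (271 to 316 and 243 to 313 TPM against 367 to 382 TPM). Only 2 of the 7 markers had a mean of 10 TPM or more, so the sum does not describe each marker. The part of this in the ribosomal protein levels was not tested.

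Between the 2 batches of the labels, batch 2 minus batch 1 gave log2 fold changes above 0 in 65 of the 82 genes, with a median of 0.04 against -0.02 for all genes, of which 46.5% were above 0. No member passed edgeR's test (0.0% of all genes) or was called by DESeq2 (0.0168% higher and 0.0112% lower). By edgeR 3 were higher at an unadjusted p under 0.05, beside 3.8% of all genes higher, namely Rps27l, Rpl36al and Rps27rt. Without Mutant1 replicate 2, whose deposited name gives batch 1, 5 members rose, and the share of all genes in that fit is not given here.

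With the batch read from the deposited names, 24 ribosomal protein genes rose and 5 fell, where 26.6% of all genes rose and 25.9% fell. The median of the family was 0.06, against -0.04 for all genes. Without the 2 libraries whose batch differs, 26 rose and 3 fell (25.8 and 21.2% of all genes). In 3 genes (Rps2, Rps27rt and Rpl7l1) all batch 2 libraries lay above all batch 1 libraries, and in 0 they lay below, beside 15.3 and 14.5% of all genes. 

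Rps27rt had the largest batch difference of the family. It had 12.9, 19.9, 14.1, 15.0 and 14.3 CPM in the libraries named batch 2 and 5.73, 5.01, 4.17, 8.13 and 6.22 CPM in those named batch 1, and the batches did not overlap. The log2 fold change was 1.37 (SE 0.185, adjusted p = 0.000372 by edgeR with the named batch). It is also the most variable member, with a ratio of 4.77 between its highest and lowest library, against a median of 1.27 over the family. Rps27, with which it shares 91.6% of its words, fell by 0.15 on the log2 scale (adjusted p = 0.0499 by edgeR with the named batch). Estimated counts split reads between such genes by a model, so the batch change of Rps27rt alone is uncertain.

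The other members that rose in batch 2 of the deposited names included Rps27l (log2 fold change 0.44, SE 0.0584), Rps2 (0.41), which lines the entry of the messenger RNA, Rpl27 (0.38, SE 0.0630), Rpl7l1 (0.37, SE 0.0424), Rpsa (0.34, SE 0.0420) and Rpl12 (0.30, SE 0.0704). Those that fell were Rpl5 (-0.25, SE 0.0404), Rps9 (-0.175, SE 0.0424), Rps27, Rps16 (-0.14) and Rpl13a (-0.13).

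For 4 of these genes most of the summed level lies in near-identical copies with other values, so the batch change of the gene alone is uncertain. Rpl5 holds 1.79% of its sum, and its copy Gm15500 had a log2 fold change of 0.01 (adjusted p = 0.866 by edgeR with the named batch). Rps16 holds 43.6%, and its copy Rps16-ps2 rose, at 0.09 (adjusted p = 0.0425 by edgeR with the named batch). Rpl27 and Rpl12 hold 3.83 and 3.33%, and against their own 0.38 and 0.30 Rpl27-ps3 rose by 0.16 (adjusted p = 0.00724 by edgeR with the named batch) and Gm10275 had 0.10 (adjusted p = 0.0758).

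Rpsa, a small-subunit protein, had 1230, 1545, 1385, 1344 and 1254 CPM in the libraries named batch 2 and 1006, 1300, 1019, 993 and 1031 CPM in those named batch 1. The batches overlapped only through the empty vector library of batch 1 at 1300 CPM. For the same gene the log2 fold change of full-length ASXL2 over the empty vector was -0.35, with an SE of 0.190 without and 0.0664 with the named batch.

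**Figure D5:**
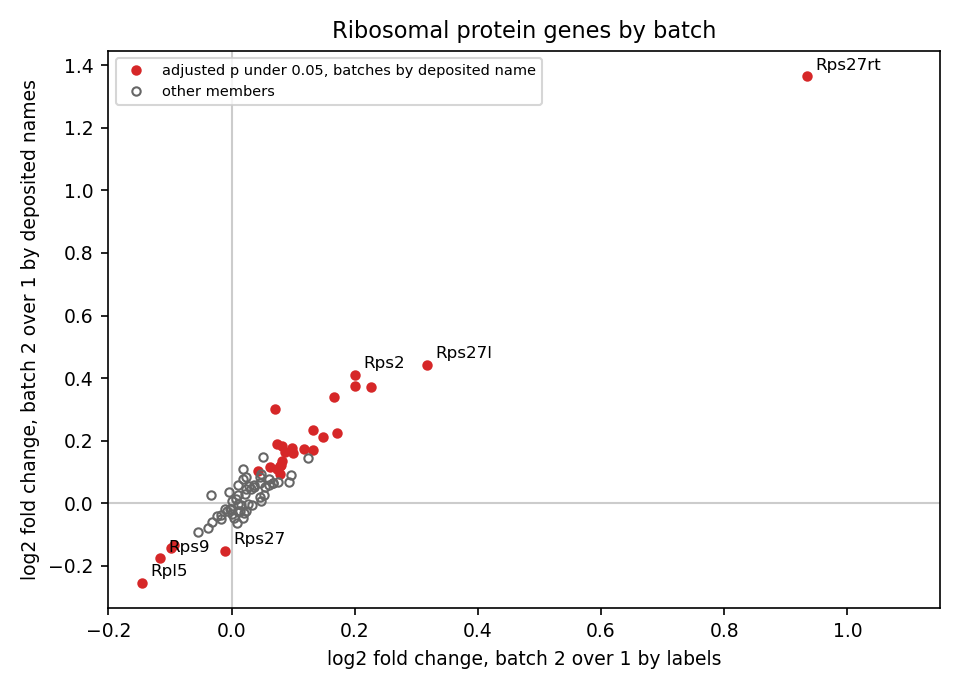
Log2 fold change of batch 2 over batch 1 for each ribosomal protein gene, with the batch of the labels on the horizontal axis and the batch of the deposited names on the vertical axis; filled points have an adjusted p under 0.05 by the deposited names. Rps27rt lies at 0.94 and 1.37, far from the other members, and Rpl5 at -0.15 and -0.25.

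Last, the spread over all 10 libraries was described. The SD of log2 CPM had a median of 0.11 over the family, from 0.0639 for Rpl11 to 0.792 for Rps27rt, against a median of 0.256 for all genes tested.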

How the data were processed

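The labels describe polyA RNA extracted with the Qiagen RNeasy kit and TruSeq libraries, 10 in all. Kallisto, DESeq2 and the build mm10 are named, without versions, per the submitters' processing notes; no source used here gives the index or any trimming. The deposited tables hold estimated counts, TPM and transcript lengths for 115088 transcripts, per the file headers. Estimated counts split reads among near-identical transcripts by a model, so members with copies are uncertain, and no strand setting is stated. Intervals are not given, since estimated counts are not independent molecules.

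Transcripts were summed per gene through GENCODE M21 (99.2% matched), and summed counts were rounded to whole numbers. Rps19bp1, a binding protein with 29.2 TPM that the symbol rule could be read to include, was left out because it is not a ribosomal protein. One edgeR 4.0.16 fit (R 4.3.3, robust quasi-likelihood, TMM, filter of 10 counts) held all 10 libraries in 3 classes, and the batch comparison had class and batch as terms. P-values were adjusted by Benjamini-Hochberg over all 17810 genes tested. Alternatives were DESeq2 1.42.0, limma 3.58.1 on log2(TPM + 1), other scaling and filters, the replicate block and each library left out. The test was checked on simulated counts without a batch effect, with planted changes larger than the family's differences between constructs. The check therefore does not cover changes of the size reported here.

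Groups came from the labels. The labels give each number as a batch, which would pair the libraries. The correlations of same-numbered deviations were 0.49 to 0.58 among the empty vector, Mutant2 and full-length groups. For the other 7 pairs of groups they were between -0.15 and 0.02. By the deposited names both Mutant1 libraries are of batch 1 and both Mutant3 libraries of batch 2, and the other groups have both batches. In edgeR's batch test 0.0% of all genes were called by the labels. By the deposited names 26.6% were called higher and 25.9% lower. The genes named were the 5 highest and 5 lowest, those past the threshold or the 3 with the smallest p per comparison, and fixed groups such as the stalk, the paralogues, Rpl5, Rpl11, Rps14, Rps19 and Rpsa. Members named by batch in the deposited names, such as Rps2, Rps9, Rps16 and Rpl13a, were chosen after their values were seen. Single-gene values of 2 members are not reported here; both are kept in all counts, medians and sums. The members and gene lists were chosen with earlier results of these data known.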

Additional observations from a re-analysis of the deposited data

Results flagged for a closer look

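Among 34 sets of the 6 mutant libraries tested for a library far from the others, 2 stood out, where chance flags about 1 in 20 groups. Rpl36a, a large-subunit gene, had 214 CPM in Mutant1 replicate 1, and the other 5 mutant libraries had 229 to 237 CPM. Rps21 had 273 CPM in Mutant2 replicate 1, and the other 5 had 247 to 255 CPM.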

How the results depend on the processing

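No called result changed direction, and of the family's medians the batch median alone changed sign. Members called with full-length ASXL2 numbered 0, where 0.0674% of all genes were called lower. They numbered 21 by DESeq2 (0.573% of all genes lower) and 35 with the replicate block by deposited name (1.22%). Copies added to that block, or TMM from other genes in it, left the count at 35. In the mutants 0 became 6 with a stricter filter (0.455% of all genes lower) and 6 with protein-coding transcripts only (0.449%). It became 23 by DESeq2 (1.12%) and 46 with the replicate block by deposited name (3.99%). Copies added to that block left the count at 46, and TMM from other genes gave a count near it. The median was -0.255 by limma on log2(TPM + 1) or log2(TPM + 0.1). The replicate block by the labels called 0 in both. Leaving out each library gave 0 to 42 and 0 to 47 calls over the fits with and without the block by deposited name, and medians of -0.286 to -0.160 and -0.240 to -0.111. The mutants against full-length had a median of 0.002 where name and label match. Between batches, 0 calls became 29 by deposited name, 31 with copies added, 28 with TMM from other genes, 29 without the 2 libraries whose batch differs and 11 where name and label match, with 0 to 33 when each library was left out. The batch median was -0.008 with protein-coding transcripts only, -0.005 by limma with either pseudocount and 0.093 within the empty vector, with 0.022 to 0.080 over libraries left out. The share of TPM was 4.65% of estimated counts (4.4, 4.57 and 5.14% for full-length, mutants and empty vector), 13.2% with copies (12.5, 12.7 and 15.1%), and 11.4, 11.6 and 13.4% without Mir6236. The cause of these changes was not tested. The comparisons with the empty vector rest on 2 such libraries, and no alternative varied the depth.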
